A study of Mus musculus with 10 samples.

Results

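The respiratory chain of the mitochondrion was followed in whole kidney through 60 nuclear genes, nearly all of them for its subunits, measured by 69 probe sets out of the 6814 that were tested. Members were chosen by name: probe sets naming a single gene whose symbol starts with Nduf, Uqcr, Atp5, Cox4, Cox5, Cox6, Cox7 or Cox8, or is Sdha, Sdhb, Sdhc, Sdhd or Cycs, with a log2 value over 4 on at least 5 of the 10 arrays. The prefixes also take in genes that are not subunits: Ndufaf1 and Ndufaf4, which are assembly factors of complex I, and Cox7a2l, a factor of supercomplexes that is counted here with complex IV. By name alone the rule found 99 probe sets for 72 genes, of which 30 probe sets lay under the floor and 12 genes had no probe set over it. The floor is the log2 value of 4 and was applied without regard to genotype.

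The arrays compared 5 mice that carry a human wild-type FGF23 transgene (TG 614, 619, 652, 657 and 661) with 5 wild-type littermates (WT 612, 618, 650, 658 and 663), all on the C57Bl strain and 8 weeks old, with 1 Affymetrix MG_U74Av2 array per animal. The transgene was placed behind an alpha1 collagen 1 promoter, which is active in bone-forming cells. FGF23 is a bone-derived hormone that lowers phosphate reabsorption in the kidney. Groups follow the sample titles, because the genotype entry of the labels reads transgenic for every animal. The labels used here state neither the sex of the animals nor which of them were littermates of each other. The arrays were alike in signal, with correlations between 0.980 and 0.998 over all probe sets and between 53.0% and 57% of probe sets over the floor. The log2 gap between the 3' and 5' actin control probe sets was less even. It ran from 1.82 in TG 652 to 3.35 in WT 612, with WT 618 next at 2.90.

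The respiratory chain passes electrons from NADH (complex I) and succinate (complex II) through ubiquinone, complex III and cytochrome c to oxygen (complex IV), and the proton gradient built on the way drives ATP synthase (complex V). The tubules of the kidney, the proximal tubule and thick ascending limb most of all, are rich in mitochondria because sodium transport there runs on ATP. Most subunits are encoded in the nucleus, and many of their promoters, in all of the complexes, are known to bind the factors NRF-1 (nuclear respiratory factor) or GABP.

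Promoter sequence was available for 49 of the 60 member genes, as 54 windows of 300 bases that run from 250 before to 50 after the start site (RefSeq, GRCm38.p6). An NRF-1 motif of 10 letters (the runs in capitals below, in which the letter after the first 5 may be any base) was searched on both strands and found in 13 of the 54 windows (24.1%), against 10.7% of the windows of all tested genes and 4.6% of all windows in the table. The GABP motif CCGGAAG was found in 25.9% of member windows, 17.8% of tested windows and 8.86% of all windows. The YY1 motif AAGATGGC was found in 11.1%, 4.56% and 2.75%, the ERR motif AAGGTCA in 9.26%, 3.27% and 4.72%, and the TATA motif TATAAA in 11.1%, 7.83% and 13.6%. The GABP motif ends in the letters with which the YY1 and ERR motifs begin, so their matches can share bases. A match describes letters only, and binding was not measured. The windows below are those of the pair of member genes with the smallest p between the genotypes (Ndufaf4 and Atp5k), the brightest member (Cox6a1) and the heart and muscle isoform Cox7a1, each 5′ to 3′ on the strand of the gene with NRF-1 motif matches in capitals.
Ndufaf4, chr4:24897833-24898132, plus strand: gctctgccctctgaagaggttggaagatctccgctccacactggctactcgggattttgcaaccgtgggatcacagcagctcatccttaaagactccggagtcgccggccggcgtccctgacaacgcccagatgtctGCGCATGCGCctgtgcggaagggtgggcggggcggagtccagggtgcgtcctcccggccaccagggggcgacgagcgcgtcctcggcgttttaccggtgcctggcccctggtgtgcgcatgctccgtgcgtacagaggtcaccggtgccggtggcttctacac
Atp5k, chr5:108434350-108434649, minus strand: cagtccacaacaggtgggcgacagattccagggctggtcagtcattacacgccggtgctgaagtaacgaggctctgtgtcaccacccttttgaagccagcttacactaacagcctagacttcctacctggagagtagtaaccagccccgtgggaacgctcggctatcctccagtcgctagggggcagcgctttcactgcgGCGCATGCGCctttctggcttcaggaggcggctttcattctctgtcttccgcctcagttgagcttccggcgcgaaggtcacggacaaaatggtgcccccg
Cox6a1, chr5:115348909-115349208, minus strand: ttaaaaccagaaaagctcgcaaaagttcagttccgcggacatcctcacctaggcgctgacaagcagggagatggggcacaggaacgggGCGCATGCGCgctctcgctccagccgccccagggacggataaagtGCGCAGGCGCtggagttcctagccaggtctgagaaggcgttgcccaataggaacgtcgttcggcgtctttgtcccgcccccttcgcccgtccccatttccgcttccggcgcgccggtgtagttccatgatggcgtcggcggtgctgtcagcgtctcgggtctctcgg
Cox7a1, chr7:30183921-30184220, plus strand: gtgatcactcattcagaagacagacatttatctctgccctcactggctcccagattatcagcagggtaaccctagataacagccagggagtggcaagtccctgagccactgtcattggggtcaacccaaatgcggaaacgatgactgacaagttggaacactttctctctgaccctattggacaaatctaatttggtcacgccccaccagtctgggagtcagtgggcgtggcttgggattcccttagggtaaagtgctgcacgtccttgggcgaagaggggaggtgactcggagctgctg
The windows of Ndufaf4 and Atp5k each hold 1 match, that of Cox6a1 holds 2, and that of Cox7a1 holds none.

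The subunit probe sets were among the brightest on the array. Their median wild-type log2 value was 11.49, against 7.29 over all probe sets tested, and 45 of the 60 genes (75.0%) lay in the brightest 10% of tested probe sets. By complex, the median wild-type log2 value was 11.32 for the 28 genes of complex I, 11.28 for the 4 of complex II, 11.71 for the 7 of complex III, 12.25 for the 9 of complex IV and 11.74 for the 11 of complex V, with Cycs at 10.31. GCRMA values carry the binding strength of each probe set, so they do not rank 1 gene against another, and these medians describe the probe sets.

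The dim end shows the same limit. Cox5a, Cox6b1, Cox8a, Atp5pb and Atp5g1 are subunits that serve in most tissues, yet all of their probe sets lay under the floor on all 10 arrays. The other genes without a probe set over the floor were Ndufa1, Ndufa12, Ndufc2, Atp5j2, Cox6a2, Cox8b and Cox8c. Of the probe sets that represent a gene, that of Ndufa10, a complex I accessory subunit, lay just inside the floor. It had a wild-type mean of 4.40 and all 10 arrays over the floor. A second probe set of Ndufb6 was nearer, at a wild-type mean of 4.09 with 7 arrays over the floor, while the bright one read 11.48. Just outside the floor lay Cox6a2 with 3 arrays over it, Ndufa1 with 2 and Cox8b with 1.

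**Figure D1:**
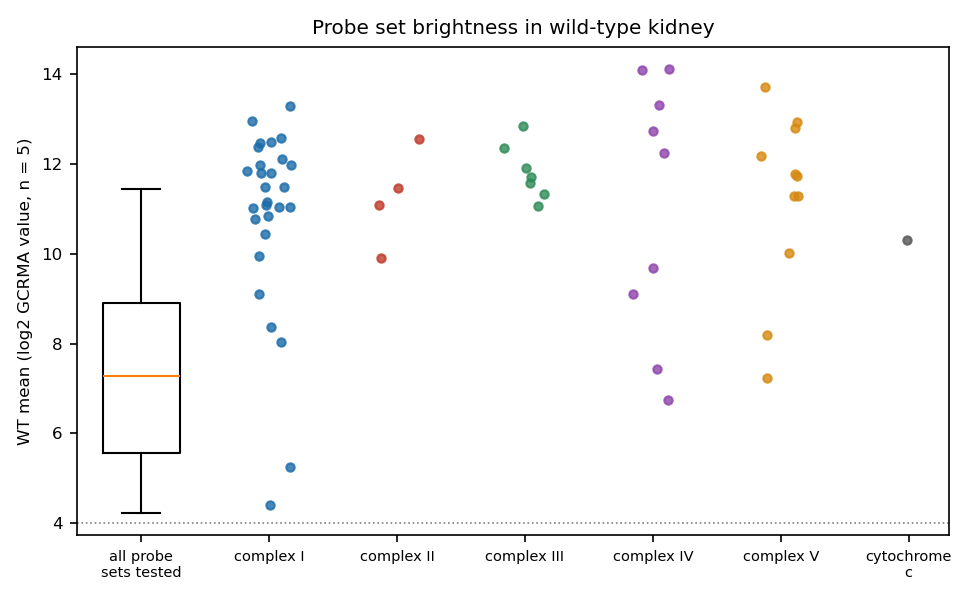
Wild-type mean log2 GCRMA value (n = 5 animals) of each respiratory chain gene by complex, 1 point per gene, beside a box of all 6814 tested probe sets (median, quartiles, whiskers from the 5th to the 95th percentile). The dotted line is the floor at a log2 value of 4. Most points of every complex lie over the upper quartile of the box, and the median of complex IV, at 12.25, is the highest.

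No respiratory chain gene differed between transgenic and wild-type kidney past the threshold. With limma, 0 of the 60 genes had an adjusted p under 0.05, where 83 of 6814 probe sets did (1.22%). At an unadjusted p under 0.05 limma gave 3 of 60 (5%, against 12.7% of all probe sets), namely Ndufaf4, Atp5k and Atp5d, and all 3 were lower in TG, where 6.02% of all probe sets were lower and 6.72% higher at that p. An exact two-sided permutation test over the 252 assignments of animals, whose smallest p is 0.00794, gave 9 of 60 at an unadjusted p under 0.05 (15.0%, against 11.8% of all probe sets). On the brightest probe set of each gene, the groups failed to overlap in 1 gene, Atp5k (1.67%, against 4.08% of all probe sets). A dim second probe set of Ndufv2, at a wild-type mean of 4.74, also had every TG value under every WT value, while the bright one overlapped.

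In the main fit, which has no covariates, the size of a difference that these arrays leave room for was small. Intervals of the alternative fits are not given here. The 95% confidence interval of TG against WT lay within 1.5-fold either way for 55 of the 60 genes (91.7%), against 69.8% of all tested probe sets and 75.8% of those at least as bright as the members' median. For all 60 it lay within 2-fold, against 90.6% of all tested probe sets. The 5 genes whose interval reached past 1.5-fold were Cox7a1, Ndufaf1, Cox6b2, Ndufaf4 and Cycs, and the widest, of Cox7a1, reached 1.73-fold.

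Most of the small differences lay below 0. In 38 of 60 genes (63.3%) the TG mean was the lower one, against 53.8% of all probe sets. That count depended on the scaling, with 32 of 60 after quantile normalization and 44 of 60 after median centring, and it was 46 of 60 with array weights and 33 of 60 without TG 619. The median log2 difference was -0.05, against -0.02 over all probe sets. The median over members of each animal's distance from the mean of all 10 animals ran from -0.05 to 0.08 in WT and from -0.10 to 0.04 in TG, so the groups overlapped. No test was run on this median. Within the batches that the run records and titles give, and within each sex as read from Xist, the members' median stayed between -0.10 and -0.02. It was -0.10 for the 3 WT and 2 TG arrays of the first chip lot and -0.02 for the 2 and 2 arrays of the next lot. In bulk tissue, fewer cells of a type and less RNA per cell cannot be told apart.

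**Figure D2:**
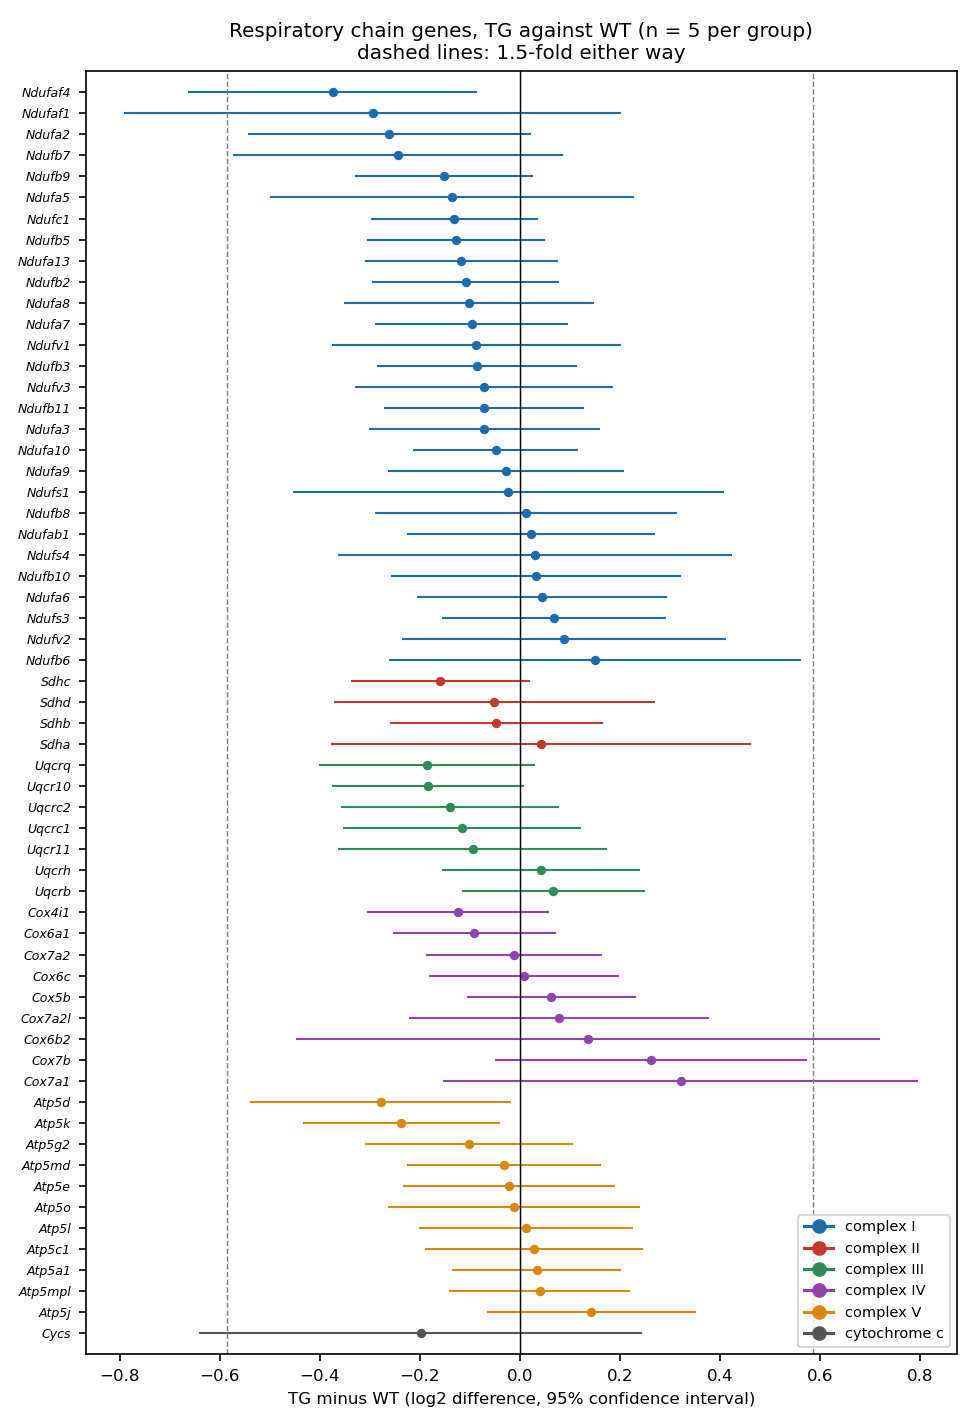
Log2 difference TG minus WT with its 95% confidence interval from limma for each of the 60 genes, coloured by complex and ordered by size within it. Dashed lines mark 1.5-fold either way, and the intervals of 5 genes cross one of them.

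Complex I takes electrons from NADH and is the largest of the complexes. Of its 28 genes 20 were lower in TG, none past the threshold, with differences from -0.37 to 0.15 and a median of -0.08. The smallest p of any member belonged to Ndufaf4, which helps to assemble complex I and has no part in electron transfer. Its log2 values were 8.33, 8.44, 7.99, 8.47 and 8.60 in WT 612, 618, 650, 658 and 663, and 8.00, 8.12, 7.71, 8.16 and 7.95 in TG 614, 619, 652, 657 and 661. The groups overlapped only through WT 650, which read with the transgenic animals while the other 4 wild-type animals lay over all 5 transgenic ones. The mean was 8.36 ± 0.23 (SD, n = 5) in WT and 7.99 ± 0.18 in TG, a difference of -0.37 ± 0.13 (SE) with adjusted p = 0.255 by limma. With sex as a covariate its adjusted p was 0.0675, still the smallest of the members, and 0 of 60 members passed where 4.18% of all probe sets did.

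Ndufa2, an accessory subunit of the matrix arm, had log2 values of 11.24, 11.32, 10.95, 10.62 and 10.98 in WT and of 10.80, 10.78, 10.64, 10.75 and 10.85 in TG, in the same order of animals. The transgenic animals lay close together and the wild-type animals were spread on both sides of them, WT 658 lowest of all 10. The difference was -0.26 ± 0.13 (adjusted p = 0.428). Ndufb9, an accessory subunit of the membrane arm, differed by -0.15 ± 0.08, from 12.58 ± 0.09 in WT to 12.43 ± 0.08 in TG (adjusted p = 0.469).

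The brightest complex I probe sets were those of the accessory subunits Ndufa3 and Ndufb5. Ndufa3 read 13.29 ± 0.20 in WT and 13.22 ± 0.08 in TG, and Ndufb5 read 12.97 ± 0.12 and 12.84 ± 0.02. Of the core subunits, Ndufv1, which binds the flavin and NADH, differed by -0.09 ± 0.13, and Ndufv2 and Ndufs1, which carry iron-sulfur clusters, by 0.09 ± 0.15 and -0.02 ± 0.19. Ndufs3, a core subunit without a redox centre, differed by 0.07 ± 0.10. None of these passed.

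Complex II, succinate dehydrogenase, is both an enzyme of the citrate cycle and an entry into the chain, and all of its subunits are nuclear. Sdhc, a membrane anchor subunit, had log2 values of 11.36, 11.58, 11.48, 11.43 and 11.50 in WT and of 11.35, 11.18, 11.42, 11.33 and 11.27 in TG. The groups overlapped through WT 612 and TG 652, and the difference was -0.16 ± 0.08 (adjusted p = 0.446). The flavoprotein Sdha differed by 0.04 ± 0.19, the iron-sulfur subunit Sdhb by -0.05 ± 0.10 and the second anchor Sdhd by -0.05 ± 0.14.

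Complex III passes electrons from ubiquinol to cytochrome c. Its median difference was -0.12, with 5 of 7 genes lower in TG and none past the threshold. The small subunit Uqcrq had log2 values of 12.78, 13.11, 12.77, 12.63 and 12.92 in WT and of 12.60, 12.71, 12.59, 12.69 and 12.70 in TG. WT 658 read among the transgenic animals and the other 4 wild-type animals lay over all of them, and the difference was -0.19 ± 0.10 (adjusted p = 0.464). Uqcr10, another small subunit, differed by -0.18 ± 0.09 (adjusted p = 0.411) and the core protein Uqcrc2 by -0.14 ± 0.10 (adjusted p = 0.606).

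Cytochrome c carries electrons between complexes III and IV, and Cycs is its somatic gene. Its log2 values were 9.91, 10.46, 10.07, 10.67 and 10.45 in WT and 9.56, 10.12, 9.96, 10.44 and 10.48 in TG. The groups overlapped, with TG 614 under every wild-type animal and WT 658 over every transgenic one, and the difference was -0.20 ± 0.20 (adjusted p = 0.728). The low values in each group were those of the animals in which Xist, the transcript of the inactive X chromosome, read over 9, namely WT 612, WT 650, TG 614 and TG 652. Their Cycs values ran from 9.56 to 10.07 and those of the other 6 animals from 10.12 to 10.67, which is a description of a pattern seen in the values and was not tested.

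Complex IV, cytochrome c oxidase, had a median of 0.06, with 6 of 9 genes higher in TG and none past the threshold. That sign was not firm: the median was -0.02 with processing day as a block, 0.01 with chip lot as a block, and just under 0 without WT 658, WT 663 or TG 661. Cox7b, a small nuclear subunit, had log2 values of 12.48, 11.83, 12.54, 12.10 and 12.29 in WT and of 12.47, 12.45, 12.58, 12.33 and 12.71 in TG. WT 618 and WT 658 were low and the rest of the wild-type animals lay within or just under the transgenic range, and the difference was 0.26 ± 0.14 (adjusted p = 0.478). Cox4i1, a large nuclear subunit, differed by -0.12 ± 0.08 (adjusted p = 0.576).

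Several complex IV subunits exist as a widely expressed form and a heart and muscle form. Of the muscle forms Cox7a1 was over the floor, at 6.75 ± 0.52 in WT and 7.07 ± 0.12 in TG, a difference of 0.32 ± 0.21 (adjusted p = 0.585). Its log2 values were 7.07, 5.99, 7.23, 7.02 and 6.46 in WT and 7.26, 7.0, 6.94, 7.09 and 7.08 in TG. WT 618 and WT 663 lay under all other animals, and the remaining 3 wild-type animals lay inside the transgenic range. The widely expressed Cox7a2 read 12.75 ± 0.09 in WT and 12.74 ± 0.08 in TG, a difference of -0.01 ± 0.08.

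Cox6a1, the widely expressed form and the brightest member, had log2 values of 13.99, 14.13, 14.13, 14.11 and 14.23 in WT and of 13.98, 14.02, 14.08, 14.01 and 14.04 in TG. Its difference was -0.09 ± 0.07 (adjusted p = 0.653), with WT 612 at the bottom of both groups beside TG 614. The muscle form Cox6a2 is under the floor and no member. Its log2 values were 4.06, 4.41, 3.97, 4.08 and 3.90 in WT and 3.66, 3.83, 3.62, 3.51 and 3.54 in TG, with 3 wild-type arrays over the floor and no others, and no difference was read from values this low. Cox6c, the other bright subunit, read 14.10 ± 0.14 and 14.11 ± 0.06. Cox6b2, known as a testis form, read 7.44 ± 0.46 in WT and 7.58 ± 0.47 in TG on its brightest probe set. The probe sets of Cox6b2 did not read alike. The second tested one read 5.60 ± 0.24 in WT and 5.68 ± 0.21 in TG, and another lay under the floor at a wild-type mean of 1.18. Its counterpart Cox6b1 was under the floor, which gives no reading of that gene.

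Complex V, ATP synthase, held both other genes with an unadjusted p under 0.05. Atp5k, the e subunit of the membrane part, had log2 values of 7.42, 7.29, 7.12, 7.23 and 7.11 in WT and of 7.0, 7.04, 6.85, 7.09 and 7.0 in TG. Every transgenic animal lay under every wild-type animal, though WT 663 and TG 657 were only 0.02 apart. The difference was -0.24 ± 0.09 with adjusted p = 0.297 by limma, and its promoter window above is one of the 13 with an NRF-1 match.

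Atp5d, the delta subunit of the central stalk, had log2 values of 10.29, 10.23, 9.74, 9.88 and 9.93 in WT and of 9.77, 9.77, 9.56, 9.81 and 9.77 in TG. WT 612 and WT 618 were high, WT 650 read with the transgenic animals and TG 652 was the lowest of all. The difference was -0.28 ± 0.12 (adjusted p = 0.371), and its 3 tested probe sets ran from -0.32 to -0.20. Further Atp5d probe sets, with wild-type means of 1.51 and 2.63, lay under the floor on all 10 arrays and give no reading. Atp5j, the coupling factor F6, was higher in TG, by 0.14 ± 0.09 (adjusted p = 0.576).

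Atp5a1, the alpha subunit of the catalytic part and the brightest gene of complex V, read 13.71 ± 0.08 in WT and 13.75 ± 0.06 in TG. Atp5md, a small membrane subunit, read 12.95 ± 0.13 and 12.92 ± 0.08. Of the genes for the c subunit, which forms the rotor ring, Atp5g2 was over the floor with a difference of -0.10 ± 0.09 and Atp5g1 was under it.

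**Figure D3:**
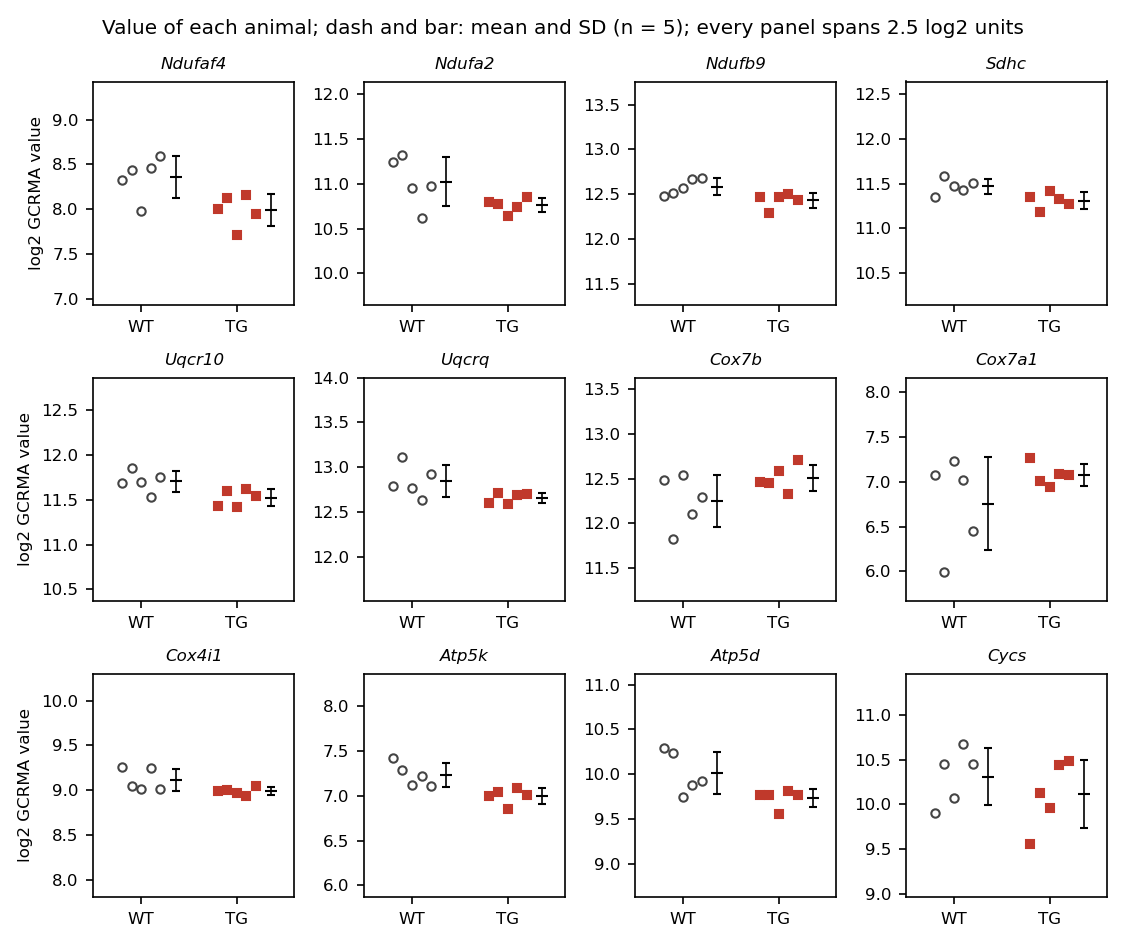
Log2 GCRMA value of each animal for 12 members, WT as open circles and TG as red squares in order of animal number, with the group mean and SD beside them (n = 5). Each panel spans 2.5 log2 units, so spreads can be compared between panels. Of these 12 genes, Atp5k is the one whose groups do not overlap, and Cox7a1 has the widest wild-type spread, with an SD of 0.52.

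The genes with each promoter motif were set beside those without it. The 12 member genes with an NRF-1 match had a median TG minus WT difference of -0.10 and the member genes without one had -0.03. For the GABP motif the medians were -0.04 with and -0.07 without. They were -0.01 and -0.05 for YY1, -0.05 and -0.05 for ERR, and -0.07 and -0.05 for TATA, in the same order. No test was run on these medians, and all of them lie within the range of the complexes.

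More than 1 tested probe set named each of 8 genes, and in none of the 8 did these differ from each other by more than 0.5 in their log2 difference. The widest gap was 0.25, in Ndufv2, where the bright probe set gave 0.09 and a dim one gave -0.17. Probe sets under the floor were not compared. Cox4i1 and Atp5g2, each with 1 tested probe set, had another under the floor, at wild-type means of 1.17 and 2.24.

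More members passed the threshold between animal numbers than between genotypes, and so did more of all probe sets (245 against 83). The numbers in the titles fall into 612 to 619 and 650 to 663, and both ranges hold both genotypes. In a comparison added after the values were seen, with genotype in the model, 4 of 60 members differed between the ranges at an adjusted p under 0.05 (6.67%, against 3.6% of all probe sets), and all 4 were complex I genes that read higher in the animals numbered 650 to 663. At an unadjusted p under 0.05 it was 19 of 60 (31.7%, against 23.3%), of which 13 were complex I, 3 complex II and 3 complex V.

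Ndufaf1, an assembly factor of complex I, had log2 values of 7.32, 7.71, 7.40 and 7.56 in WT 612, WT 618, TG 614 and TG 619 and of 8.24, 8.38, 8.50, 7.86, 7.98 and 7.89 in WT 650, WT 658, WT 663, TG 652, TG 657 and TG 661. The ranges did not overlap on this probe set, and the difference was 0.65 ± 0.12 (adjusted p = 0.0297 by limma). The second tested probe set of Ndufaf1, dimmer at a wild-type mean of 5.75, did not show it, with a difference of -0.02 ± 0.14 (adjusted p = 0.962). Ndufs1, the largest subunit of complex I and a carrier of iron-sulfur clusters, had log2 values of 10.22, 10.81, 10.63 and 10.44 in the lower range and of 11.06, 10.98, 11.19, 11.13, 10.95 and 11.00 in the higher one. The ranges did not overlap here, with a difference of 0.53 and an adjusted p of 0.0442. Ndufs4, an accessory subunit of the NADH-oxidising module, differed by 0.48 (adjusted p = 0.0462) and Ndufb10, in the membrane arm, by 0.35 (adjusted p = 0.0466).

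No gene of complex II passed the threshold between the ranges. Its median difference between the ranges was 0.29, against 0.14 for complex I, 0.10 for complex III, 0.02 for complex IV, 0.03 for complex V and 0.02 over all probe sets. Sdha differed by 0.49 (adjusted p = 0.0577) and Sdhd by 0.38 (adjusted p = 0.0501). Complex I had genes on the other side too, where Ndufa5, an accessory subunit, differed by -0.38 (adjusted p = 0.0986) and Ndufb7 by -0.34 (adjusted p = 0.114).

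Other measures moved with the number range. The log2 gap between the 3' and 5' actin control probe sets, which widens as RNA is shorter or copied less far, was 3.35, 2.90, 2.17 and 2.58 in WT 612, WT 618, TG 614 and TG 619 and between 1.82 and 2.42 in the 6 animals of the higher range. With that gap as a covariate 0 members and 0 probe sets passed, and the same was found with fluidics station as a block. All 4 animals of the lower range were run on 1 station, which WT 663 and TG 661 of the higher range shared. The count of members was also 0 without any 1 of WT 612, WT 658, WT 663, TG 619 or TG 657, and 1 (Ndufaf1) without WT 650, TG 652 or TG 661, while with sex as a covariate it was 10. Their part in the difference between the ranges was not tested. The effect of genotype itself differed between the ranges in 0 of 6814 probe sets by limma, with 279 (4.09%) at an unadjusted p under 0.05, among them 1 member, Ndufb7.

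**Figure D4:**
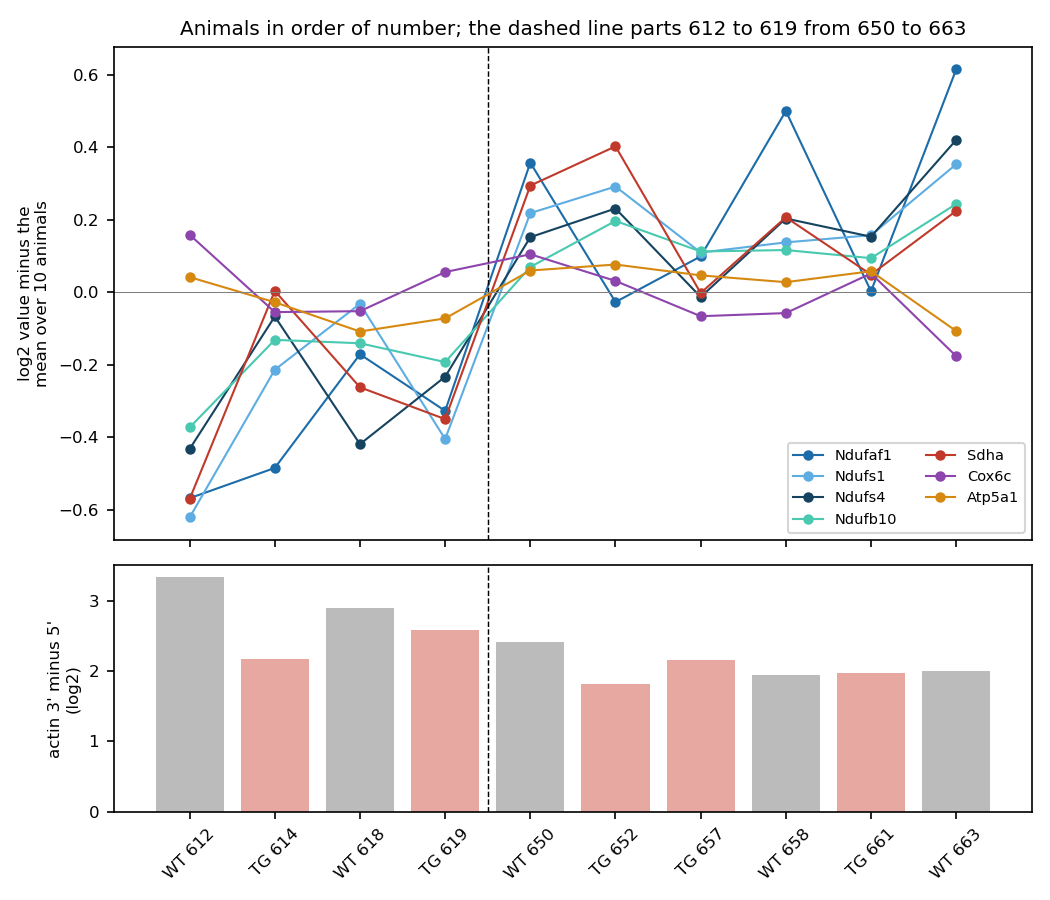
Top, log2 value minus the mean over the 10 animals for 7 members, with animals in order of their number and a dashed line between 619 and 650. Bottom, log2 gap between the 3' and 5' actin control probe sets, WT in grey and TG in red. The 4 called complex I genes and Sdha lie mostly under 0 left of the line and mostly over it to the right, while Cox6c and Atp5a1 stay within 0.2 of 0.

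Other genes of mitochondrial metabolism were read from lists made with earlier results of these data known. Among 6 further electron carriers and subunits, 1 fell, the glycerol-3-phosphate dehydrogenase Gpd2, which feeds electrons from cytosolic glycolysis to ubiquinone. It read 8.28 ± 0.21 in WT and 7.65 ± 0.17 in TG, a difference of -0.63 ± 0.12 (adjusted p = 0.0425). In fits that left out 1 animal it passed without WT 650 or TG 661 and not without any of the others, where its adjusted p reached 0.114. It also missed the threshold with processing day (adjusted p = 0.113) or fluidics station (0.0508) as a block, with the actin gap as a covariate (0.0718) and with no filter (0.051). Acad9, an assembly factor of complex I, differed by -0.55 ± 0.12 (adjusted p = 0.0602).

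The mitochondrial ribosome, which makes the subunits that mitochondrial DNA encodes, had 57 tested genes, of which 47 were lower in TG and 0 passed, with a median of -0.12. Over all probe sets 53.8% were lower in TG. The counts of lower genes in this and the following lists were not taken under other scalings. Its genes with the smallest p, Mrpl35 (-0.50) and Mrpl45 (-0.45), had an adjusted p of 0.0722. Of the 24 genes of the cytosolic ribosome 7 were lower, 0 passed and the median was 0.06. The 15 genes of the citrate cycle and pyruvate dehydrogenase had 9 lower, 0 passing and a median of -0.02.

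Regulators of mitochondrial biogenesis had 7 of 8 tested genes lower, 0 passing and a median of -0.13, with the nuclear receptor Esrra at -0.31 ± 0.11 (adjusted p = 0.255). The 6 mitochondrial antioxidant genes were all lower with 0 passing and a median of -0.13, and Sod2 differed by -0.25 ± 0.09 (adjusted p = 0.298). The 7 carriers of ATP, phosphate and the outer membrane had 0 passing and a median of 0.01. Of 12 glycolysis genes 1 rose, the aldolase Aldoc, by 1.19 ± 0.23 (adjusted p = 0.0370), which passed without WT 612 or WT 650 and not without any 1 of the others, where its adjusted p reached 0.107. Its call was also lost with chip lot (0.0691), fluidics station (0.0508) or processing day (0.17) as a block, with the actin gap as a covariate (0.0519) and with no filter (0.051). None of the other 11 passed.

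**Figure D5:**
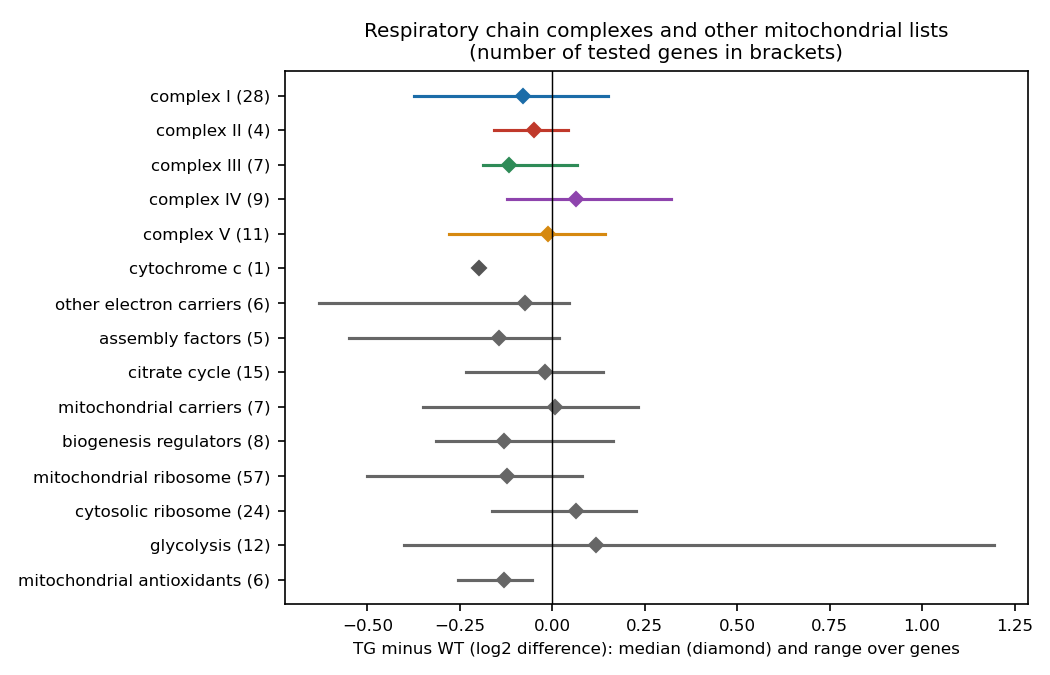
Median (diamond) and range (line) of the log2 difference TG minus WT over the tested genes of each complex, of cytochrome c and of 9 other metabolic and ribosomal lists, with the number of genes in brackets. The medians of complexes I to V lie between -0.12 (complex III) and 0.06 (complex IV), and the line of glycolysis ends at Aldoc, at 1.19.

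Markers of kidney segments and of leukocytes were read on the same arrays. Marker levels were summed as linear values and put on the log2 scale, so bright markers weigh most. The summed level of 6 proximal tubule markers ran from 15.35 to 15.47 in WT and from 14.9 to 15.22 in TG. The groups did not overlap, though 0 of the 6 passed, and 5 were lower in TG. Among them was the phosphate transporter Slc34a1, at 13.66 ± 0.13 in WT and 13.26 ± 0.07 in TG. It had the smallest p of the list, with a difference of -0.40 ± 0.08 (adjusted p = 0.0533 by limma). The part of Slc34a1 in the sum was not tested. The summed level of 8 leukocyte markers ran from 10.72 to 11.23 in WT and from 11.59 to 12.59 in TG, and 2 rose, the complement gene C1qa by 1.46 ± 0.31 (adjusted p = 0.0493) and the protease Ctss by 1.24 ± 0.23 (adjusted p = 0.0370). Of the fits without 1 animal, C1qa passed only in that without WT 650 and Ctss only in those without TG 619 or TG 661, with an adjusted p of up to 0.141 and 0.112 in the others. Of 14 other alternatives C1qa passed in 5, with an adjusted p of 0.0691 with chip lot, 0.0661 with fluidics station, 0.106 with processing day and 0.0514 with number range as a block and 0.0857 with the actin gap as a covariate. Ctss passed in 12 of them, and not with the actin gap (0.0519) or with no filter (0.051). The 5 tested markers for distal convoluted tubule and thick ascending limb, which is also rich in mitochondria, had 0 passing and a median of 0.56. They did not move together: 1 was lower in TG, at -0.91, and the highest difference was 0.92. The summed level of these markers ran from 13.21 to 14.43 in WT and from 14.35 to 14.79 in TG, with overlap. Of 3 collecting duct markers 1 rose, the anion exchanger Slc4a1, by 0.83 ± 0.17 (adjusted p = 0.0478), 1 was lower in TG, and their median was 0.47. Their summed level overlapped, from 10.73 to 11.70 in WT and from 11.01 to 11.54 in TG. Slc4a1 was not followed through the fits without 1 animal or the batch blocks. The markers of endothelium (4 tested), podocytes (1 tested) and red cells (2 tested) had medians of 0.06, 0.04 and 0.09 with 0 passing. The skeletal muscle markers (5 on the array) and the adrenal markers (3 on the array) had no probe set over the floor on at least 5 arrays. Cox6a2 of the muscle list was over it on 3 arrays, all of them wild-type. The part of cell makeup in the small differences of the chain was not tested.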

How the data were processed

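Kidney RNA of 10 separate animals was measured on 1 array each, from 6 ug of RNA per the labels. Values in the deposited table are log2 signals, 1 for each probe set on each array, which the authors made with GCRMA per the submitters' processing notes, with no version. That the scale is log2 was read from the range of the values. GCRMA normalizes across arrays, so a shift shared by most genes would be removed. Other fields, the chip lot, fluidics station and order of processing days, were read from the deposited run records.

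Of 12488 probe sets, 66 controls and 396 that name several genes were not used as members, and 10 of the latter would have matched the rule. The controls were left out of all tests. TG was compared with WT on the 6814 probe sets over the floor by limma 3.58.1 in R 4.3.3 (lmFit, eBayes), two-sided, with Benjamini-Hochberg adjustment over all of them and a threshold of 0.05. Each gene was represented by its brightest tested probe set.

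The number of arrays limits the precision. Members and lists were chosen with earlier results of these data known. The rule for naming genes takes, in each complex, the 3 genes with the smallest p and the 2 brightest, the isoform pairs of complexes IV and V, the probe sets nearest the floor, and the 2 genes with the smallest p in each other list. Other genes named were chosen after their values were seen. Sex was read from Xist and used only as a covariate or to describe. Alternatives covered the filter, the variance model, array weights, normalization, batches, sex, the actin gap, an exact permutation test, a stricter threshold and leaving out each animal. The steps were tested on simulated data. Figures used matplotlib 3.10.9 under Python 3.11.15.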

Additional observations from a re-analysis of the deposited data

Results flagged for a closer look

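In 5 of 120 groups of 5 values (60 genes in each genotype), 1 animal stood so far from the rest that its gap to the nearest was over 0.71 of the group's range. Chance alone would flag about 6. WT 658 read 10.78 for Ndufa6, an accessory subunit of complex I, with the other wild-type animals between 11.10 and 11.23. TG 619 was low for a pair of complex I genes: it read 12.05 for Ndufb8, where the other transgenic animals lay between 12.44 and 12.53, and 11.92 for Ndufs3, where they lay between 12.06 and 12.11. WT 618 read 11.40 for Uqcrb of complex III, with the others between 11.60 and 11.65. TG 652 read 9.56 for Atp5d of complex V, with the others between 9.77 and 9.81.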

How the results depend on the processing

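In every one of the 24 alternative fits 0 members passed, with the smallest adjusted p of a member between 0.0675 and 0.48, while the exact permutation test, unadjusted, gave 9 members. The members' median of -0.05 was -0.11 with the actin gap as a covariate, where all probe sets had -0.04, and ran from -0.08 to -0.02 without 1 animal. With the actin gap as a covariate the median was -0.11 for complex I, -0.14 for III, 0.06 for IV and 0.01 for V. For complex II it was -0.19, against -0.05 in the main fit. The count of all probe sets, 83, was 48 with no filter, 52 with fluidics station and 32 with processing day as a block, 285 with sex as a covariate, 18 at an adjusted p under 0.01, and 31 to 92 without 1 animal (64 without WT 612, 92 without WT 650 and at most 45 without any other). The 4 members that differed between number ranges became 0 with fluidics station as a block, 0 with the actin gap as a covariate, 10 with sex as a covariate and 0 to 5 without 1 animal. The TG effect differed between number ranges in 0 probe sets under all alternatives run. The processing day block gives no weight to WT 663 and TG 661, the only arrays of their days. The cause of these shifts was not tested. No paired analysis was possible because every animal has its own number and the groups share none. With 5 animals a group the intervals of members in the main fit reach 1.73-fold at the widest. Probe sets under the floor give no reading of their genes.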

Other observations

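Cox8b, the muscle and brown fat form of a complex IV subunit, had at most 1 array over the floor on each of its probe sets, yet the values of the brighter one were uneven: 3.86 in WT 612 and 4.22 in WT 650, against 2.81 to 3.27 in the other 8 animals. WT 650 had the highest reading of the fat gene Adipoq, 8.17 against 3.07 to 4.91 in the other 9 animals, and of the brown fat gene Ucp1, 5.65 against 3.80 to 4.57. The summed level of the 5 brown fat markers on the array, Cox7a1 and Cox8b among them, was 8.08 on the log2 scale in WT 650 and 7.06 to 7.71 in the others. Cidea of the brown fat list was also highest there, at 5.10 in WT 650 against 2.89 to 4.23 in the others. The white fat gene Fabp4 read 4.51 in WT 650 against 3.83 to 4.22. Elovl3 did not follow, at 4.20 in WT 650 against 4.09 to 4.77 in the others. Nor did the summed level of 3 white fat markers, which Lpl leads. That sum was 12.35 in WT 650 against 12.86 in WT 658, 12.76 in TG 657 and 12.70 in WT 663. These genes were picked after their values were seen, and no explanation was tested.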
